A study of Mus musculus with 8 samples.

Results

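The plasminogen activators Plau and Plat, the urokinase receptor gene Plaur and the serpin genes Serpine2 and Serpinb2 were examined across 4 mouse mammary tumour lines. These 5 genes, of 27179 in the count table, were found by their Entrez identifiers and were chosen by their counts in these same libraries, in which Plau is among the strongest differences between lines. Their differences between lines are therefore given as descriptions, without tests. Tests are given for other genes of the plasminogen system.

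RNA-seq libraries were made from 2 biological replicates of each of 4T1.2, 4T1, 66cl4 and 67NR, related lines grown in culture with no treatment named in the labels. All 4 shared the same medium with fetal calf serum. 4T1.2 is described by the study as highly metastatic with a propensity for bone, and 66cl4 and 67NR as having low metastatic potential compared with 4T1 and 4T1.2, a contrast the study drew to look for factors by which tumour cells alter their surroundings. Each line is one model, so a difference between lines cannot be assigned to metastatic behaviour, and the labels spell 66cl4 with a digit in place of its letter l. No in vivo sample is included.

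The plasminogen system is a cascade of serine proteases at the cell surface. Urokinase (uPA, encoded by Plau) and tissue-type plasminogen activator (tPA, encoded by Plat) cleave the inactive precursor plasminogen to plasmin, which degrades fibrin and other matrix proteins. The urokinase receptor (uPAR, encoded by Plaur) holds uPA at the membrane through a glycolipid anchor. Serpins trap these proteases as covalent complexes: PAI-2 (Serpinb2) inhibits uPA, and protease nexin-1 (Serpine2) inhibits thrombin, the activators and plasmin. In mammary tumours the system is known for its link with invasion.

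Promoter sequence was available for 3 of the 5 genes, Plaur, Serpine2 and Serpinb2. The sequences are shown because these genes moved in the same direction at very different levels, and because AP-1 and Sp1 sites are known from plasminogen activator and receptor promoters. Bases before the RefSeq start site are given 5′ to 3′ on the gene's strand (RefSeq, GRCm38.p6). Capitals mark matches on either strand to AP-1 (TGANTCA), the GC box bound by SP1 (GGGCGG) and the TATA box (TATAAA). These 3 motifs share no letters in the runs shown, but neighbouring GC boxes overlap or abut one another.
Plaur, chr7:24462233-24462482, plus strand: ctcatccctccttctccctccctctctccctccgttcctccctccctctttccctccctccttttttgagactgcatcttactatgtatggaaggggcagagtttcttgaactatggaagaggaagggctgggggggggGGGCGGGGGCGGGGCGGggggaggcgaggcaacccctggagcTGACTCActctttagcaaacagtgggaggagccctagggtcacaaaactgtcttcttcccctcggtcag
Serpine2, chr1:79858697-79858915, minus strand: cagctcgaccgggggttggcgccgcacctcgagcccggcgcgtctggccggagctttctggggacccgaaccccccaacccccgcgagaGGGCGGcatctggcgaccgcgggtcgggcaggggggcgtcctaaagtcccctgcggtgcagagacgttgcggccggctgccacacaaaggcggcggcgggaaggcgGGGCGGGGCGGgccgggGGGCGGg
Serpinb2, chr1:107511173-107511422, plus strand: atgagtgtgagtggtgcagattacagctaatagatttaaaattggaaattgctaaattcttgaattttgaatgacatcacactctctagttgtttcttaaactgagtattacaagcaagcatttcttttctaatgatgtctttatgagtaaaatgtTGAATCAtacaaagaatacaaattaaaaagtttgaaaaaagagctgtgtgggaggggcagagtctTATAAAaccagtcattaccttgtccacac
For Serpine2, the 31 bases nearest the start lie in an exon annotated by GENCODE and are left out, so 219 bases are shown, with 4 of the 6 GC boxes of the 250-base window. For Serpinb2, the first of 2 listed start sites is shown. The windows of Plaur and Serpinb2 lie inside the gene spans of the Entrez table, which begin further upstream.

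The Plaur window held 1 AP-1 match, beginning 69 bases before the start, and 3 GC boxes. The Serpine2 window held no AP-1 match and was rich in G and C (78.8% of its 250 bases, against 59.6% for Plaur and 32.4% for Serpinb2). The Serpinb2 window held 1 AP-1 match 94 bases before the start and 1 TATA box at 29 bases, and no GC box. Of 32851 mouse promoter windows of 250 bases, 6.75% held the AP-1 motif, 32.7% the GC box and 12.4% the TATA box. A match is a description of the letters only.

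Library totals ran from 37159840 to 66269681 counts, and log2 profiles of replicates correlated at 0.995 to 0.996 across genes within lines and at 0.779 to 0.985 between lines. Levels are CPM, counts divided by library size after scaling by edgeR's trimmed mean of M-values (TMM), with mean ± SD over n = 2 libraries, and levels of different genes are compared as RPKM, which also divides by gene length. The main contrast set the average of the 4T1.2 and 4T1 line means beside that of 66cl4 and 67NR, called pooled here. Log2 fold changes come from edgeR's quasi-likelihood fit over 13913 genes, with an approximate standard error (SE).

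All 5 genes passed the filter on low counts and all 5 lay higher in each 4T1 and 4T1.2 library than in any 66cl4 or 67NR library. Over all genes tested, 27.8% were higher without overlap in this way and 38.1% were called higher at an adjusted p under 0.05. The rule used this contrast, so nothing is read from the count of 5. The size differed widely among them: Plau and Serpine2 differed by over 11 log2 units, Serpinb2 and Plaur by 2 to 4, and Plat by less than 1.

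**Figure D1:**
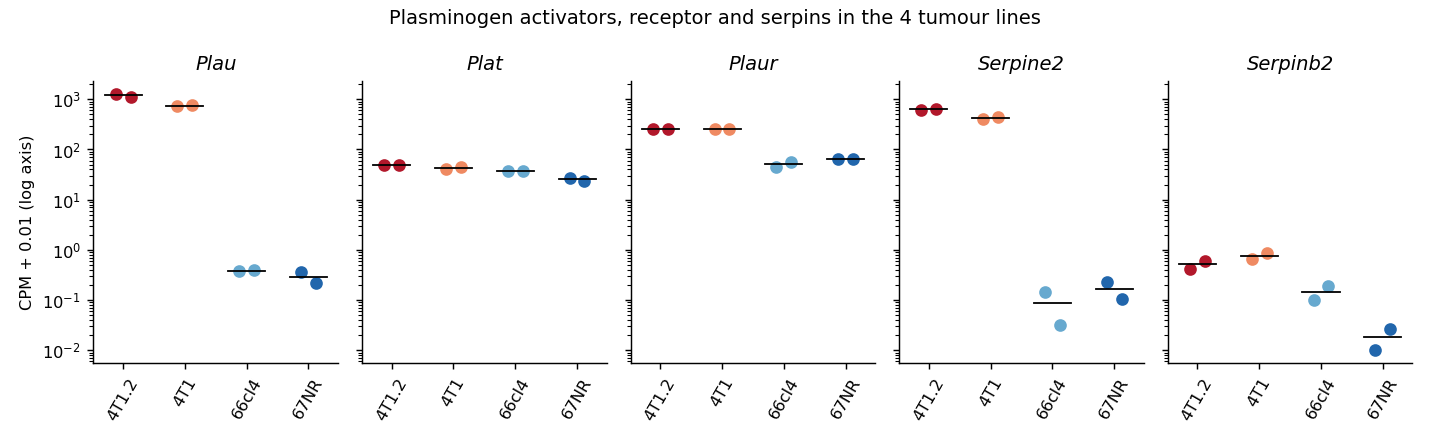
CPM + 0.01 on a log axis for the 5 genes in each of the 8 libraries, by line; points are libraries and bars are means of 2. Plau and Serpine2 sit above 400 CPM in 4T1 and 4T1.2 and below 0.4 CPM in 66cl4 and 67NR, whereas Plat stays between 23.2 and 49.1 CPM in all 8 libraries.

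Plau (Entrez 18792, chr14:20836662-20843388, plus strand) encodes uPA, the activator that works mainly on cells and in tissue. The 4T1.2 libraries held 72698 and 62804 counts and the 4T1 libraries 45448 and 35029, while 66cl4 held 17 and 17 and 67NR 13 and 13. As levels, these were 1195 ± 122 CPM for 4T1.2, 750.4 ± 8.09 for 4T1, 0.378 ± 0.00268 for 66cl4 and 0.283 ± 0.102 for 67NR. The transcript was thus abundant in 4T1.2 and 4T1 and scarce in the others. In bulk RNA, fewer cells with a transcript and less of it per cell cannot be told apart. Per length, Plau lay above 99.3% of tested genes in 4T1.2 and above 98.8% in 4T1, but above only 12.7% for 66cl4 and 11.6% for 67NR. In the pooled contrast its log2 fold change was 11.53 (SE 0.13), which placed it 38th of the 13913 genes among those higher in 4T1/4T1.2. The ratio of summed counts scaled by library size was 3071 (95% exact interval 2386 to 4024, counting error only).

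The order of Plau levels was 4T1.2, 4T1, 66cl4, 67NR. Between 4T1.2 and 4T1 the libraries did not overlap, with a log2 fold change of 0.67 (SE 0.11). Between 66cl4 and 67NR the 60 counts in all left the order unresolved, with a count ratio of 1.43 and an exact interval of 0.832 to 2.48.

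Plat (Entrez 18791, chr8:22757722-22782848, plus strand) encodes tPA, known best for dissolving fibrin in vessels. The 4T1.2 libraries had 48.3 and 49.1 CPM, those of 4T1 40.1 and 45.4, those of 66cl4 38.0 and 37.8, and those of 67NR 27.3 and 23.2. No neighbouring lines in this order overlapped, although 4T1 and 66cl4 were close, with a log2 difference of 0.17 (SE 0.11). The pooled log2 fold change was 0.56 (SE 0.08), and by size it held place 7152 of 13913. Scaling by library totals in place of TMM gave 0.43 for it, with the median of all genes then at -0.14 in place of -0.01. The largest difference was that of 4T1.2 and 67NR, at 0.95 (SE 0.11). Counts ran from 1001 to 2781, so counting error played little part.

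Which activator was the more abundant therefore turned over between the pairs of lines. Plau exceeded Plat per length in every 4T1.2 and 4T1 library, by 28.7, 24.4, 20.1 and 18.0 times. In 66cl4 and 67NR, Plat exceeded Plau, by 93.6, 92.1, 71.3 and 101.8 times. Plau made up 94.7% to 96.6% of the summed activator RPKM in the first 4 libraries and 0.973% to 1.38% in the other 4. The sum itself fell from between 334 and 566 RPKM to between 9.25 and 15.2 RPKM.

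**Figure D2:**
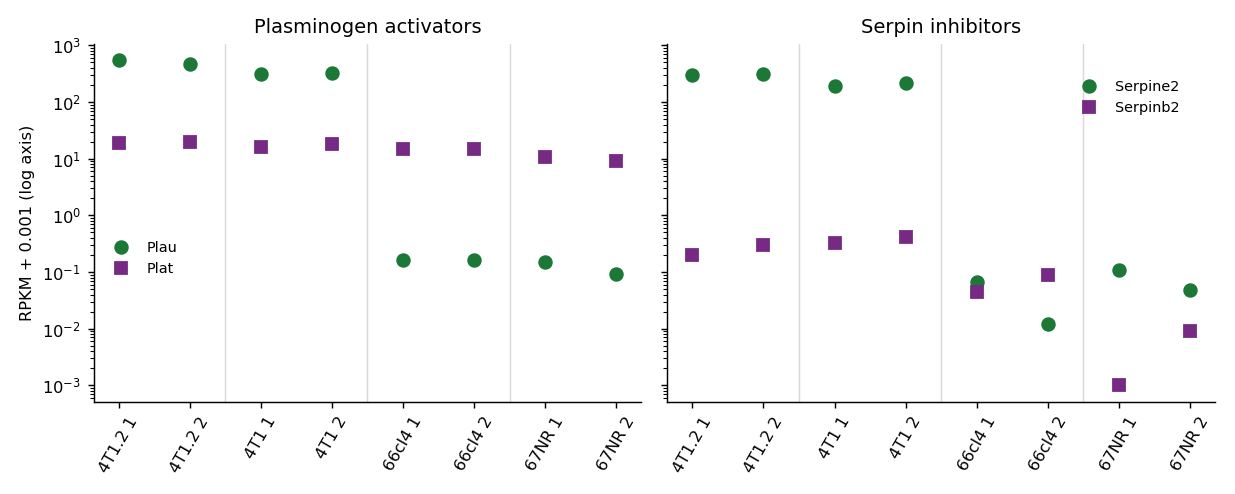
RPKM + 0.001 on a log axis in each library for the activators (left) and the serpins (right); numbers after a line name are replicates. Plau lies 18.0 to 28.7 times above Plat in 4T1.2 and 4T1 and 71.3 to 101.8 times below it in 66cl4 and 67NR, and Serpine2 lies at 195 to 317 RPKM in the former libraries and at 0.0109 to 0.106 RPKM in the latter.

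Plaur (Entrez 18793, chr7:24460937-24475970, plus strand) encodes the receptor that concentrates uPA at the cell surface. The 4T1.2 libraries had 259 and 254 CPM and those of 4T1 259 and 255, while 66cl4 had 44.7 and 56.0 and 67NR 65.1 and 65.3. The receptor transcript was thus well expressed in all 4 lines, above 97.3% of tested genes per length in both 4T1.2 and 4T1, 82.0% for 66cl4 and 86.5% for 67NR. The pooled log2 fold change was 2.16 (SE 0.08), and 2.03 with library totals. The 4T1.2 and 4T1 libraries overlapped, with a log2 difference of -0.00 (SE 0.10). The 67NR libraries lay above both 66cl4 libraries, and 66cl4 minus 67NR was -0.37 (SE 0.11).

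Ligand and receptor differed in how far they moved. Plau RPKM was 1.71 to 2.94 times that of Plaur in the 4T1.2 and 4T1 libraries. In the 66cl4 and 67NR libraries, Plaur was 199.8 to 519.9 times as high as Plau.

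Serpine2 (Entrez 20720, chr1:79794317-79858665, minus strand) encodes protease nexin-1, a secreted inhibitor with a broad range of serine protease targets. Its counts were 34961 and 36849 for 4T1.2 and 24428 and 20572 for 4T1, but 6 and 1 for 66cl4 and 8 and 6 for 67NR. Levels were 633 ± 24.3 CPM for 4T1.2, 422 ± 31.0 for 4T1, 0.0775 ± 0.0780 for 66cl4 and 0.158 ± 0.0856 for 67NR. An inhibitor thus showed the same presence and near absence as the activator Plau. Its pooled log2 fold change of 12.22 (SE 0.18) held place 14 among genes higher in 4T1/4T1.2, and the ratio of summed counts was 4745 (exact interval 3104 to 7666). Without replicate 1 of 66cl4, which leaves the library with 1 count, the pooled value was 13.07.

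4T1.2 and 4T1 did not overlap for Serpine2, with a log2 fold change of 0.58 (SE 0.13). 66cl4 and 67NR overlapped, and their fitted log2 difference of -0.86 ranged from -2.56 without replicate 1 of 66cl4 to -0.11 without replicate 2. The exact interval of the 67NR to 66cl4 count ratio, 0.692 to 5.36, included 1. Plau RPKM stayed at 1.49 to 1.82 times Serpine2 RPKM over the 4T1.2 and 4T1 libraries.

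Serpinb2 (Entrez 18788, chr1:107500892-107525600, plus strand) encodes PAI-2, much of which stays inside the cell. It was scarce in every library, with 23 and 34 counts for 4T1.2, 40 and 39 for 4T1, 4 and 8 for 66cl4 and 0 and 1 for 67NR. Its highest level, 0.842 CPM, was in a 4T1 library, and per length it lay above at most 16.2% of tested genes in any line. The ratio of summed counts between the pairs of lines was 8.93 (exact interval 5.05 to 17.2). The fitted pooled log2 fold change of 3.89 (SE 0.43) depended on the prior count, at 2.82 with a prior of 2, and on replicate 2 of 67NR, without which it was 5.05. Some of these counts may belong elsewhere, since 9.0% of its 75-base stretches also occur in Serpinb10, an overlapping gene on the same strand with 0 to 7 counts in a library. None of the stretches of the other 4 genes occurred in another gene.

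Serpinb2 departed from the order of Plau, Serpine2 and Plat between 4T1.2 and 4T1. 4T1 lay above 4T1.2 without overlap, with a count ratio of 1.46 (exact interval 1.03 to 2.10, counting error only). The fitted log2 difference of 4T1.2 minus 4T1 was -0.56 with an SE of 0.33, so this order is uncertain. 66cl4 exceeded 67NR, with 12 counts against 1 and a ratio of 13.1 (1.94 to 560.1). Against that single count, the ratio was 49.4 for 4T1.2 (8.52 to 1985) and 72.3 for 4T1 (12.6 to 2893).

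Inhibitor and activator transcripts were therefore both abundant in 4T1.2 and 4T1, where Serpine2 ran from 195 to 317 RPKM beside the 334 to 566 RPKM of the summed activators. In 66cl4 and 67NR, Serpine2 ran from 0.0109 to 0.106 RPKM. Protein and protease activity were not measured.

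The pairwise differences show that the large contrasts did not rest on 1 line. Adjusted p-values under 0.05 were reached by 67.8% of genes for 4T1.2 against 67NR, 68.8% for 4T1.2 against 66cl4, 68.2% for 4T1 against 67NR and 70.0% for 4T1 against 66cl4. These comparisons share lines and are not independent. Plau had log2 fold changes of 12.12, 11.62, 11.45 and 10.95 in that order (SE 0.18 to 0.19). Serpine2 had 12.09, 12.95, 11.50 and 12.36 (SE 0.25 to 0.27), with the 66cl4 contrasts rising to 14.64 and 14.06 without replicate 1 of 66cl4 and falling to 12.20 and 11.61 without replicate 2, and the 67NR contrasts at 11.49 and 10.90 without replicate 2 of 67NR. Plaur had 1.98, 2.35, 1.98 and 2.35, and Plat had 0.95, 0.36, 0.76 and 0.17 (SE 0.11 for each).

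Within the pairs of lines, the differences of Plau, Serpine2 and Plaur were far smaller than between the pairs. Over all genes, 19.3% were called for 4T1.2 against 4T1, and 44.6% for 66cl4 against 67NR. The 4T1.2 over 4T1 log2 differences were 0.67 for Plau, 0.58 for Serpine2, 0.19 for Plat, -0.00 for Plaur and -0.56 for Serpinb2. The parental line 4T1 thus already held most of the Plau and Serpine2 transcript seen in its bone-tropic derivative. The 66cl4 minus 67NR differences were 0.59 for Plat (SE 0.11) and -0.37 for Plaur (SE 0.11), while Plau at 0.50 (SE 0.32) and Serpine2 rested on 60 and 21 counts. That of Plat was as large as its pooled difference, and Serpinb2 at 3.43 (SE 1.02), with 13 counts in these 4 libraries, was near its own.

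**Figure D3:**
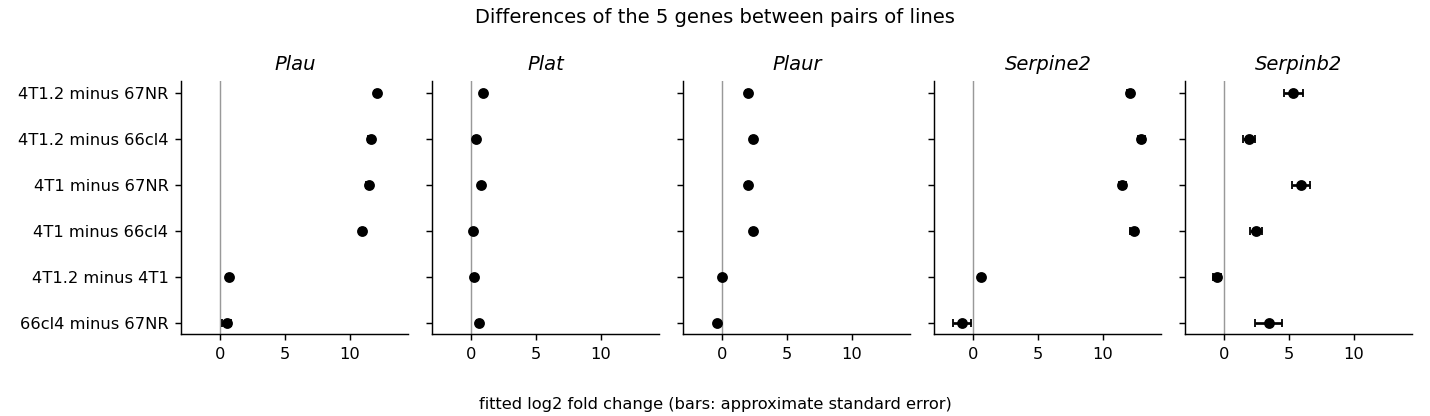
Fitted log2 fold change between each pair of lines for the 5 genes; bars are approximate standard errors. Plau and Serpine2 lie between 10.95 and 12.95 in the 4 upper contrasts and between -0.86 and 0.67 in the 2 lower ones, and Plat stays between 0.17 and 0.95 throughout.

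Of 92 other genes of the system on 7 lists, 64 passed the filter, and relative to 66cl4/67NR the 4T1/4T1.2 lines had more of 32, less of 25 and no called difference in 7 (edgeR, adjusted p under 0.05). That is 89.1% called against 76.7% of all genes tested, with a median log2 fold change of 0.39 beside -0.01. Low genes near 0 in 1 pair of lines entered only through the other pair, so these are shares of the genes that passed.

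Plasminogen itself (Plg), which the liver makes, had 0 to 2 counts in a library and was not tested. Of the proteases upstream, 5 of the 6 tested were higher and 1 was lower, with a median of 2.20. St14, which encodes the membrane protease matriptase, an activator of pro-uPA, had 21.2 ± 1.56 CPM for 4T1.2 and 106 ± 4.79 for 4T1, but 0.0444 and 0.198 for 66cl4 and 67NR (pooled log2 fold change 8.95, SE 0.13, adjusted p = 1.50e-11, edgeR). 4T1.2 minus 4T1 was -2.32 on the log2 scale (adjusted p = 1.59e-06, edgeR), opposite in sign to Plau. Coagulation factor XII (F12, 4.02) and hepsin (Hpn, 2.67) were higher at low levels, both under 3 CPM. The complement protease gene Masp1 was lower, with a log2 fold change of -2.77.

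Among other inhibitors, 2 of the 4 tested were higher and 2 lower. Spint1 and Spint2 encode the membrane Kunitz inhibitors HAI-1 and HAI-2, which restrain matriptase and hepsin. Spint1 had 136 ± 1.05 CPM for 4T1.2 and 115 ± 7.48 for 4T1, against 0.122 and 0.332 (9.31, SE 0.16, adjusted p = 2.79e-11, edgeR), and Spint2 rose by 2.29 on the log2 scale. The transcripts of matriptase and its inhibitor HAI-1 thus shared the on and off contrast of Plau and Serpine2 between the pairs of lines. Between 4T1.2 and 4T1, St14 (-2.32) went the other way from Plau and Serpine2. Serpini1 (neuroserpin, an inhibitor of tPA) was lower, at -2.24 (SE 0.17, adjusted p = 9.39e-07, edgeR). Its levels were low in all lines, 0.423 and 0.467 CPM for 4T1.2 and 4T1 against 1.64 and 2.71 for 66cl4 and 67NR.

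Other serpins of clades B and E did not share the rise. Of the 7 tested, 1 was higher (Serpinb6b, 2.04, libraries overlapping), 4 were lower and 2 were not called, with a median of -0.25. Serpinb9b fell by 2.74 and Serpinb9 by 0.62 on the log2 scale, the latter with overlapping libraries. Serpinb1b had 70 counts in 66cl4 and 67NR against 4, a ratio of 20.5 (exact interval 7.66 to 77.4). Serpinb8, the next tested gene after Serpinb2 on its chromosome, differed between the first pair of lines (4T1.2 minus 4T1 -5.15, SE 0.31, adjusted p = 9.90e-06, edgeR), at -5.98 without replicate 2 of 4T1.2, and between 66cl4 and 67NR (66cl4 minus 67NR 4.21, SE 0.33, adjusted p = 9.04e-06). Genes of the Serpinb family, and of the Ly6 family described further on, have near-identical relatives between which counting could divide reads.

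Of the surface receptors, 18 of 19 were tested, with 6 higher, 9 lower and 3 not called (median -0.27). Itgb3, the β3 integrin chain that pairs with αv to bind vitronectin, had 25.3 to 36.0 CPM as line means in 4T1/4T1.2, and summed counts of 6815 against 5, a ratio of 1163 (exact interval 498 to 3582; adjusted p = 4.66e-10, edgeR). Lrp2 and Vldlr, which encode endocytic receptors that take up protease and serpin complexes, went the other way, and Lrp1, which encodes the main receptor of this kind, fell by 1.37 on the log2 scale (SE 0.16, adjusted p = 2.73e-05, edgeR). Lrp2 (megalin) had 7602 counts in 66cl4 and 67NR against 8, a ratio of 1114 (565 to 2581), and Vldlr had 3972 against 1, a ratio of 4656 (835 to 183900), nearly all of it in 66cl4 (43.3 CPM against 0.824 in 67NR; log2 difference 5.76, adjusted p = 2.61e-07, edgeR). Mrc2, the collagen receptor that associates with uPAR, had 401 and 209 CPM as means of 66cl4 and 67NR, but 5.11 and 5.24 for 4T1.2 and 4T1 (-5.81, SE 0.10, adjusted p = 3.42e-11, edgeR). Igf2r (2.47), which binds uPAR and plasminogen, and Eno1 (1.37), a plasminogen receptor at the surface, were higher. Igf2r was also higher in 66cl4 than in 67NR (2.79, adjusted p = 4.97e-06, edgeR).

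Of the substrates, 7 of the 10 tested were higher and 3 lower, with a median of 1.90. Mmp3 and Mmp9 encode stromelysin 1 and gelatinase B, proenzymes that plasmin can activate directly or through one another. Mmp3 had 1684 ± 57.3 and 1362 ± 55.1 CPM for 4T1.2 and 4T1 against 8.43 and 12.6 (7.20, SE 0.08, adjusted p = 6.75e-12, edgeR), and Mmp9 had 209.6 and 178 CPM against 0.344 and 2.28 (7.77, SE 0.13, adjusted p = 2.08e-11, edgeR). Mmp9 was lower in 66cl4 than in 67NR, at -2.71 (adjusted p = 1.95e-05, edgeR), and -3.33 without replicate 1 of 66cl4. Cdcp1, a membrane protein cleaved by plasmin and matriptase, had 17675 counts against 6, a ratio of 2513 (1154 to 6849). The matrix glycoprotein genes Thbs1 (-2.53) and Fn1 (-1.22) and the growth factor gene Mst1 (-2.93) were lower. Thbs1 was nonetheless higher in 4T1.2 than in 4T1, at 1.02 (adjusted p = 0.00038, edgeR).

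Relatives of the receptor in the Ly6/uPAR family were divided, with 3 of the 7 tested higher, 2 lower and 2 not called (median -0.98). Lypd3 (C4.4A) had 1240 counts in 4T1/4T1.2 against 4, a ratio of 264.5 (103 to 972), and Ly6c1 (4.11) and Ly6a (1.62) were higher. Ly6e had 1184 and 1158 CPM in 66cl4 and 67NR against 64.8 in 4T1.2 and 18.5 in 4T1 (-5.08, SE 0.07, adjusted p = 1.50e-11, edgeR), and Lynx1 fell by 3.42 on the log2 scale. Ly6e was higher in 4T1.2 than in 4T1, at 1.81 (adjusted p = 5.23e-06, edgeR).

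The ETS and AP-1 factor genes, whose products act on plasminogen activator and receptor promoters, were all tested, with 8 higher and 4 lower (median 0.90). Etv4, an ETS factor, had line means of 287 and 239.8 CPM for 4T1.2 and 4T1 against 34.2 and 35.4 (2.91, SE 0.08, adjusted p = 5.17e-10, edgeR). The AP-1 genes Fosb (2.80) and Jund (1.78) were higher, while Fosl2 (-1.65), the ETS gene Ets2 (-1.31) and Junb (-0.97) were lower.

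**Figure D4:**
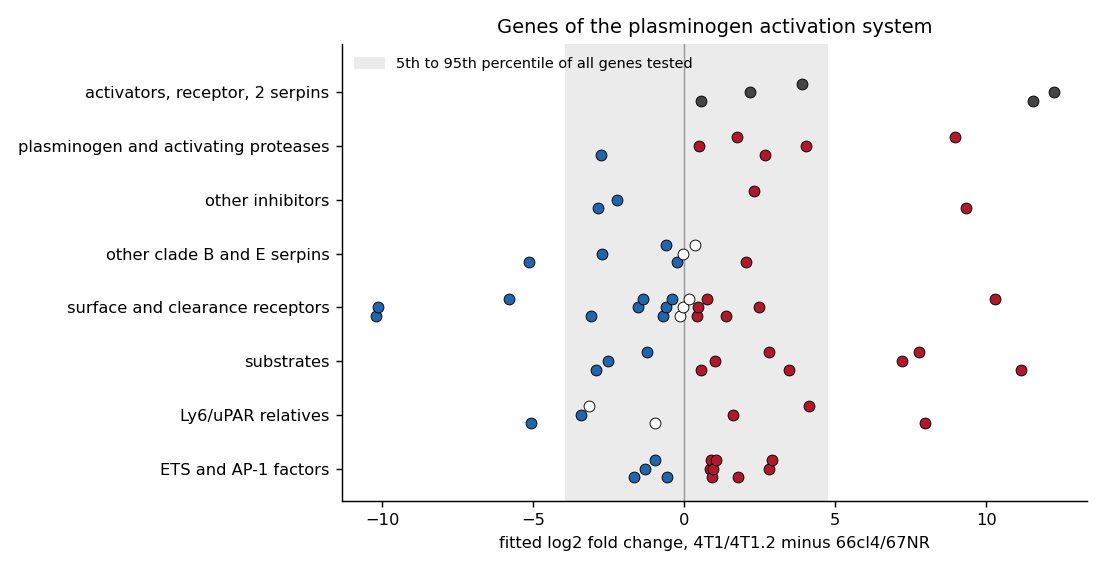
Fitted pooled log2 fold change of each tested gene, by list; red points were called higher in 4T1/4T1.2, blue points lower and white points not called, and the grey points are the 5 genes of the top row, without a test. The grey band spans the 5th to the 95th percentile of all genes tested, -3.91 to 4.72; Plau and Serpine2 lie outside it, as do genes of 6 of the other lists on 1 side or both.

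Between single lines, genes of these lists were called in 93.8% for 4T1.2 against 67NR, beside 67.8% of all genes tested. The shares were 85.9% beside 68.8% for 4T1.2 against 66cl4, and 90.6% beside 68.2% for 4T1 against 67NR. For 4T1 against 66cl4 they were 79.7% beside 70.0%. Between 4T1.2 and 4T1, 24 of 64 were called (37.5%), 8 higher and 16 lower, and the count was 13 without replicate 2 of 4T1.2 and 15 without replicate 1. Between 66cl4 and 67NR, 39 were called (60.9%), 25 higher and 14 lower.

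Differences as large as those of Plau and Serpine2 were rare over all genes tested, where they held places 92 and 40 of 13913 by size. Smaller values among the genes around them therefore say little, and are given as a description. Plau had 28 tested genes within 1 Mb on either side. Their median log2 fold change was 0.59, against 0.51 over the 479 tested genes of chromosome 14 and -0.01 over all genes tested. Of the 28, 20 were called higher and 1 lower (edgeR, adjusted p under 0.05), where 38.1% of all genes tested were called higher. Its nearest tested neighbours were Camk2g at 42.5 kb (1.03) and Vcl at 86.0 kb (-0.34), and the highest value in its window was 10.76. Serpine2 had 6 such genes with a median of 0.07, and its neighbours Mrpl44 at 12.9 kb and Cul3 at 406.3 kb were at 0.02 and 0.12, beside 1 gene at 9.67. Plaur had 39 with a median of -0.22, among them Smg9 at 38.2 kb (-0.03) and Cadm4 at 6.1 kb (2.57), and the family member Lypd3 lay in the same window. Plat had 23 with a median of -0.34, with Ikbkb at 51.1 kb (-0.15) and Ap3m2 at 4.5 kb (-1.21). Serpinb2 had 4 with a median of 0.14, Vps4b (-0.17) and Serpinb8 (0.35) being the nearest.

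**Figure D5:**
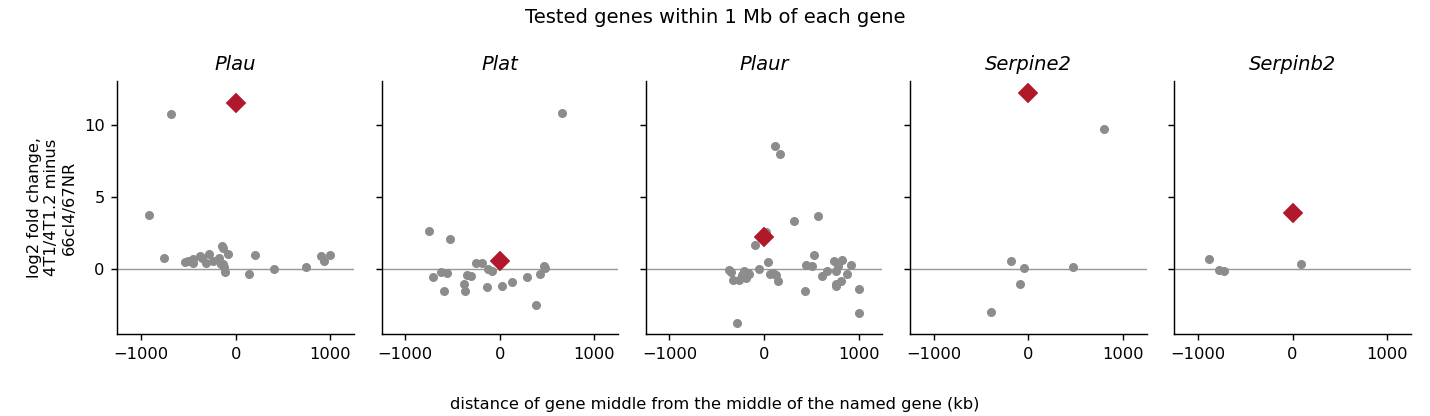
Fitted pooled log2 fold change of tested genes (grey points) against the distance of their middle from the middle of each of the 5 genes (red diamond), in kb. Medians of the neighbours are 0.59 for Plau and 0.07 for Serpine2, beside -0.01 over all genes tested. The windows of Plau, Serpine2 and Plat each hold 1 gene above 9, and those of Plaur and Serpinb2 hold none.

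Profiles over the 8 libraries were set against all tested genes by the root mean square difference of centred log2 CPM, as a description. Closest to Plau were Tnfrsf19 (0.371), Micu2 (0.406) and Cyba (0.564), and Serpine2 held place 6 (0.648). Closest to Serpine2 were Nt5dc2 (0.339), Efemp2 (0.554) and Tnfrsf19 (0.596), and Plau held place 5. The measure weighs the size of a difference, and few tested genes differed by as much as Plau and Serpine2. Their places near each other follow in part from that size, so no relation between activator and inhibitor is read from them. Tnfrsf19 was near both, at 423.7 CPM for 4T1.2 and 248.6 for 4T1 and under 0.15 CPM elsewhere. Closest to Plaur were Wdyhv1 (0.110), Cyrib (0.113) and Tgds (0.122), and to Plat were Sparc (0.0829), Glb1 (0.0848) and St3gal4 (0.0930). Closest to Serpinb2 were Card14 (0.269), Epb41l4b (0.283) and Cds1 (0.356), at a prior count of 2 that compresses such low genes.

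Markers of other cell types moved with the contrast to differing degrees. The 7 mammary epithelial markers summed to between 1475 and 2891 CPM in 4T1/4T1.2 and between 465 and 720.2 CPM in 66cl4/67NR. In 66cl4/67NR, Epcam and Krt19 had at most 3 counts in every library. Krt5, which was not tested, went the other way. It had at most 3 counts in every 4T1/4T1.2 library, but not in every 66cl4/67NR library. The 6 tested were all called higher by edgeR, from Krt8 (1.13) to Epcam (12.10). Krt18 was also higher in 66cl4 than in 67NR (6.82). The 8 mesenchymal markers summed to between 6817 and 9082 CPM against between 6199 and 7449 CPM and consisted largely of Vim, at 5455 and 5829 CPM for 4T1.2 and 4T1 and 3278 and 1948 CPM for 66cl4 and 67NR. Of the 8, Vim (1.16) and Pdgfra (0.34) were higher and the other 6 lower by edgeR: Zeb1 (-7.37), Pdgfrb (-6.87), Col1a1 (-2.62), Fn1 (-1.22), S100a4 (-0.57) and Cdh2, which had no more than 3 counts in each 4T1/4T1.2 library. The 10 leucocyte markers summed to between 68.1 and 84.5 CPM against between 18.4 and 42.9 CPM, nearly all of it Cd14 (log2 fold change 1.49). Cd68 (0.97) and Itgam (2.04) were also called higher and Laptm5 (-3.06) lower by edgeR. The defining markers Ptprc, Adgre1, Cd3e and Tyrobp had at most 3 counts in any library, and Csf1r had 0 to 7. The 5 endothelial markers summed to between 0.830 and 3.70 CPM against between 0.335 and 0.442 CPM. Of these, Cdh5 (3.60) and Pecam1 (1.00) were called higher by edgeR at these low levels, and Emcn, Kdr and Tek were not tested. These untested genes had at most 3 counts in every 4T1/4T1.2 library, whereas in 66cl4/67NR this held only for Kdr. The part of these differences in epithelial character in the levels of the 5 genes was not tested.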

How the data were processed

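RNA-seq of 8 libraries was analysed, 2 biological replicates from each of 4 lines, grouped by the labels. The authors prepared libraries with the TruSeq RNA v2 protocol, used Rsubread for alignment to mm10 and featureCounts for counting on Entrez genes, and they deposited raw counts per gene without normalization. Alignment and counting are described for other libraries of the study and said to be similar here. The strand setting is not given in the sources used here, so overlapping genes on opposite strands could share reads. Plau, Plat, Plaur, Serpine2 and Serpinb2 overlapped no gene on the opposite strand in the GENCODE annotation. The 8 files of single libraries matched the table, and 0 columns of per-sample values were left unmapped.

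Of 27179 identifiers, 25275 (93.0%) had an entry in a GRCm38 gene table. filterByExpr kept 15269 genes, and 13913 remained once ribosomal and predicted genes and unmatched identifiers, which held 5.38% to 7.98% of counts, were dropped. Differences were fitted with edgeR 4.0.16 (R 4.3.3, limma 3.58.1), by the quasi-likelihood F-test with TMM and a prior count of 0.125, on 1 mean per line with 4 residual degrees of freedom, and p-values were Benjamini-Hochberg adjusted with a threshold of 0.05. The SE was derived from the F statistic. RPKM uses the gene lengths in the deposited table. Exact binomial intervals (95%) of count ratios cover counting error only, and depth was 37159840 to 66269681 counts. The test was checked on simulated counts in which 200 of 13913 genes were changed: 190 were recovered in the pooled comparison, beside 9 false calls, and 184 for 4T1.2 against 67NR, beside 7. The simulation changed few genes, whereas 76.7% of those tested were called in the pooled comparison of these data. It therefore does not check the scaling or the calls where most genes differ. The biological coefficient of variation was 9.74%.

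The 5 genes, the lists and the tests were chosen with earlier results of these data known. Named genes were the 5 members, Plg, up to 3 genes per direction and list with the largest pooled change among those called, the nearest tested gene on each side of a member, and the 3 most similar profiles. Some list genes and markers are not reported here. Within the pairs of lines, the list genes named (St14, Serpinb8, Ly6e, Thbs1, Igf2r, Vldlr, Mmp9) and the marker Krt18 were chosen after their values were seen. So were Lrp1 in the pooled comparison and the location of Lypd3. Promoters came from a RefSeq table. Figures were drawn with matplotlib 3.10.9. Alternatives were other size factors, other filters, DESeq2 1.42.0, limma-voom, edgeR's newer fit, a prior count of 2, a replicate block and each library left out.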

Additional observations from a re-analysis of the deposited data

How the results depend on the processing

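In the pooled comparison, the 5 genes kept their direction under each setting that tested them. Requiring 10 counts or more of every library left Serpine2 and Serpinb2 untested. With library totals in place of TMM, the median of all genes moved from -0.01 to -0.14, the share of calls that were higher from 49.7% to 41.9%, and log2 fold changes were 0.43 for Plat and 2.03 for Plaur in the pooled comparison, 0.80 and 1.83 for 4T1.2 against 67NR, 0.59 and 1.81 for 4T1 against 67NR, and 0.058 for Plat in 4T1 against 66cl4. With a prior count of 2, Serpinb2 was at 2.82 pooled, 3.46 for 4T1.2 against 67NR, 3.99 for 4T1 against 67NR and 1.81 for 66cl4 against 67NR, and the last 3 were 4.78, 5.35 and 2.91 with limma-voom. The cause was not tested, beyond the low counts of 67NR that such a prior weighs on.

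With each library left out in turn, the pooled values ran from 11.85 to 13.07 for Serpine2 and from 3.61 to 5.05 for Serpinb2. For 4T1.2 against 67NR they ran from 11.71 to 12.45 for Plau, 0.83 to 1.07 for Plat and 4.77 to 7.65 for Serpinb2, and for 4T1 against 67NR from 11.04 to 11.78, 0.64 to 0.88 and 5.33 to 8.21. For 4T1.2 against 66cl4 they ran from 2.20 to 2.52 for Plaur, 12.20 to 14.64 for Serpine2 and 1.48 to 2.48 for Serpinb2, and for 4T1 against 66cl4 from 2.20 to 2.52, 11.61 to 14.06 and 2.04 to 3.03. For 66cl4 against 67NR they ran from 0.089 to 0.83 for Plau, 0.47 to 0.71 for Plat, -0.54 to -0.22 for Plaur, -2.56 to -0.11 for Serpine2 and 2.85 to 5.75 for Serpinb2. List genes called between 4T1.2 and 4T1 numbered 13 to 23 beside 24. Among the list genes named, the pooled values of 4 with at most 8 counts over 1 pair of lines also ran widely, Itgb3 from 9.65 to 12.42, Lrp2 from -12.44 to -9.71, Vldlr from -11.21 to -9.70 and Lypd3 from 7.54 to 9.82.

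The labels number replicates 1 and 2 in each line, but nothing says that a number marks a shared culture or day, and correlations of replicate deviations between lines ran from -0.123 to 0.269. With a replicate block the calls were 10788 beside 10676 in the pooled comparison, 2879 beside 2681 for 4T1.2 against 4T1 and 6415 beside 6210 for 66cl4 against 67NR.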
